A study of Mus musculus with 14 samples.

Results

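The genes described here are the nuclear genes whose symbols name subunits or assembly factors of mitochondrial complex I. They were the rows of the count table whose symbol was Nduf followed by a, b, c, s or v and a number, or Ndufab1, or began with Ndufaf, with symbols that carry the ending -ps left out. The rule found 49 of 55291 symbols, and all 49 were among the 21761 genes tested. By known roles, 7 of them encode the catalytic core subunits, 29 the accessory subunits and 8 assembly factors. The other 5 carry related names only. Ndufa4 was first assigned to complex I and is now counted with complex IV, Ndufa4l2 is its paralogue, and Ndufa11b, Ndufb4c and Ndufs6b are annotated as processed pseudogenes. The symbol Ndufb1 had no row of its own, and Ndufb1-ps was among the 4 symbols left out.

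Complex I, NADH:ubiquinone oxidoreductase, takes electrons from NADH in the mitochondrial matrix, passes them to ubiquinone and pumps protons across the inner membrane. A matrix arm holds the flavin and the iron-sulphur clusters, and a membrane arm holds the proton pumps, which are built around subunits encoded by mitochondrial DNA. Accessory subunits surround this core, and assembly factors help to put the parts together without staying in the finished enzyme. Skeletal muscle, heart and brown fat are rich in mitochondria, and mature bone samples can hold muscle, marrow and fat beside bone cells.

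RNA of the tibia of wild-type female C57Bl/6 mice was sequenced in 14 libraries. After ovariectomy (OVX), mice received zoledronic acid (OVX-ZA, n = 3), 3'(3'hydroxyphenyl) propionic acid (OVX-PPA, n = 2), hippuric acid (OVX-HA, n = 3) or the PBS vehicle (OVX-PBS, n = 3), and sham-operated mice (sham, n = 3) served as the control for surgery. Dosing began 2 to 4 days after surgery and lasted 8 weeks. Zoledronic acid is a bisphosphonate that blocks bone resorption, and the other 2 compounds are small aromatic acids. The age of the mice and the doses were not stated. Whether the libraries of a group stem from different animals was not stated either, so p-values measure the spread between these samples, which may be technical.

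Libraries held 11896743 to 35417948 estimated counts, and the members had at least 31.1 counts each per library. Levels are given as CPM, counts scaled to a common library total with TMM factors. Bone cell markers were present in every library: the mean log2 CPM of 8 osteoblast genes ran from 5.22 to 6.82 and that of 8 osteoclast genes from 3.70 to 6.06. Muscle was present as well, and 20 skeletal muscle genes took 4.43% to 9.88% of the counts. These include genes of fast fibres, such as Myh4, and genes shared by all skeletal fibres, such as Acta1 and Ttn. The brown fat gene Ucp1, which uncouples respiration from ATP synthesis, ran from 12.5 to 226 CPM. The myelin gene Mobp read 1.17 CPM in OVX-HA replicate 2 and 5.55 CPM in OVX-PBS replicate 1, against 153 to 507 CPM in the other libraries, so the group medians and slope calls below are also given without these 2 libraries.

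Levels differed widely between members and between roles. To compare genes, CPM was divided by the length of the principal transcript in kilobases. Among core subunits, Ndufs8 had a median over the 14 libraries of 77.8 CPM per kb and Ndufs7 one of 126 CPM per kb. The middle gene of the 29 accessory subunits stood at 95.4 CPM per kb. Ndufb4 stood at 14.9 CPM per kb, but a stretch of its transcript is identical to the pseudogene Ndufb4c. How reads of that stretch were divided is not known. Apart from Ndufb4, the medians of the accessory subunits ran from 23.3 to 284 CPM per kb (Ndufb8). The lowest was Ndufab1, without the median of 11.4 CPM assigned to the left-out row Ndufab1-ps. All 8 assembly factors lay lower, with medians of 6.69 (Ndufaf6) to 17.6 CPM per kb (Ndufaf1). The range of the assembly factors overlapped neither that of the core subunits nor that of the accessory subunits other than Ndufb4. For the accessory subunits this depended on the length: in plain CPM the median of Ndufaf4 (37.9) lay above that of Ndufa1 (37.5).

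Ndufa4 had the highest level per length of the 49, with a median of 451 CPM per kb. Ndufa4 had 241, 236 and 251 CPM in OVX-ZA, 267 and 219 in OVX-PPA, 238, 199 and 218 in OVX-HA, 299, 296 and 209.7 in OVX-PBS, and 253, 192 and 266 in sham. Among true complex I subunits the next were 3 accessory proteins of the membrane arm, namely Ndufb8 (284 CPM per kb), Ndufb9 (263 CPM per kb) and Ndufb10 (202 CPM per kb). At the low end, Ndufaf6, an assembly factor needed for the mitochondrial ND1 subunit, had the lowest level per length. Ndufaf6 had 6.27, 8.09 and 7.59 CPM in OVX-ZA, 6.51 and 6.45 in OVX-PPA, 7.22, 6.94 and 7.24 in OVX-HA, 9.21, 9.56 and 6.50 in OVX-PBS, and 7.64, 6.14 and 8.29 in sham. Neighbours in this order often did not differ beyond their spread: the CPM per kb of Ndufb8 spanned 216 to 379 over the libraries and that of Ndufb9 spanned 199 to 347.

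Of the pseudogenes, Ndufb4c calls for care because its annotated transcript of 390 bases was identical to a stretch of the Ndufb4 transcripts. A read of 75 bases from that stretch fits both genes equally, and all 316 possible 75-base words of Ndufb4c occurred in Ndufb4. Of the 1841 words of Ndufb4, 17.2% occurred in Ndufb4c, so most words of Ndufb4 tell it apart from the pseudogene. Ndufb4c was assigned 57.2 to 99.6 CPM and its parent Ndufb4 12.2 to 18.6 CPM. How reads of the shared stretch were divided between these rows is not known, so the CPM of Ndufb4c cannot be told apart from reads of Ndufb4. Ndufs6b was 96.6% identical to Ndufs6 and Ndufa11b 94.8% identical to Ndufa11, with 14 of 274 and 5 of 350 words shared. The opening 120 bases of the annotated transcripts of Ndufb4c and Ndufs6b on mm10 are shown with the matching stretch of the parent gene's transcript, so that the sites at which reads can be told apart are visible; capitals mark bases that differ, 0 in Ndufb4c and 7 in Ndufs6b.
Ndufb4c (chromosome 15): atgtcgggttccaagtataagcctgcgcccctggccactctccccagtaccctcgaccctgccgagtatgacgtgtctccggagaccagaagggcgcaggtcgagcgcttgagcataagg
Ndufb4 (chromosome 16): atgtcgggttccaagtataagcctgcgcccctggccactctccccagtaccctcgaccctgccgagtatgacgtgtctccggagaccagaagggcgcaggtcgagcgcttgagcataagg
Ndufs6b (chromosome 7): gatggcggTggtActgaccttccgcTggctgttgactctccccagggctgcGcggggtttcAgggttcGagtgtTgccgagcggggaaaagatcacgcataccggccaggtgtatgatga
Ndufs6 (chromosome 13): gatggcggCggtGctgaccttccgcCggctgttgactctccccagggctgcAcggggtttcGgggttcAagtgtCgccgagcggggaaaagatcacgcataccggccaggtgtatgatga
Ndufs6b had 16.8 to 29.6 CPM against 37.2 to 65.6 CPM of Ndufs6, and Ndufa11b had at most 3.96 CPM.

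The members moved together from library to library. Their summed level ran from 3405 CPM in sham replicate 2 to 5468 CPM in OVX-PBS replicate 1. The sums were 4134, 3965 and 4420 CPM in OVX-ZA, 4436 and 3711 in OVX-PPA, 4270, 3656 and 4007 in OVX-HA, 5468, 5237 and 3808 in OVX-PBS, and 4463, 3405 and 4744 in sham (replicates in order in every list of values). OVX-PBS replicates 1 and 2 stood above all other libraries, while OVX-PBS replicate 3 lay below 10 of the others in the range of the compound groups. OVX-PBS replicate 1 held the highest value of 27 of the 49 members and replicate 2 that of 18, against 15.6% and 3.15% of all genes tested. Sham replicate 2 held the lowest value of 28 members, against 8.46% of all genes. TMM scaling used a factor of 0.871 for OVX-PBS replicate 1, the smallest of the 14.

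**Figure D1:**
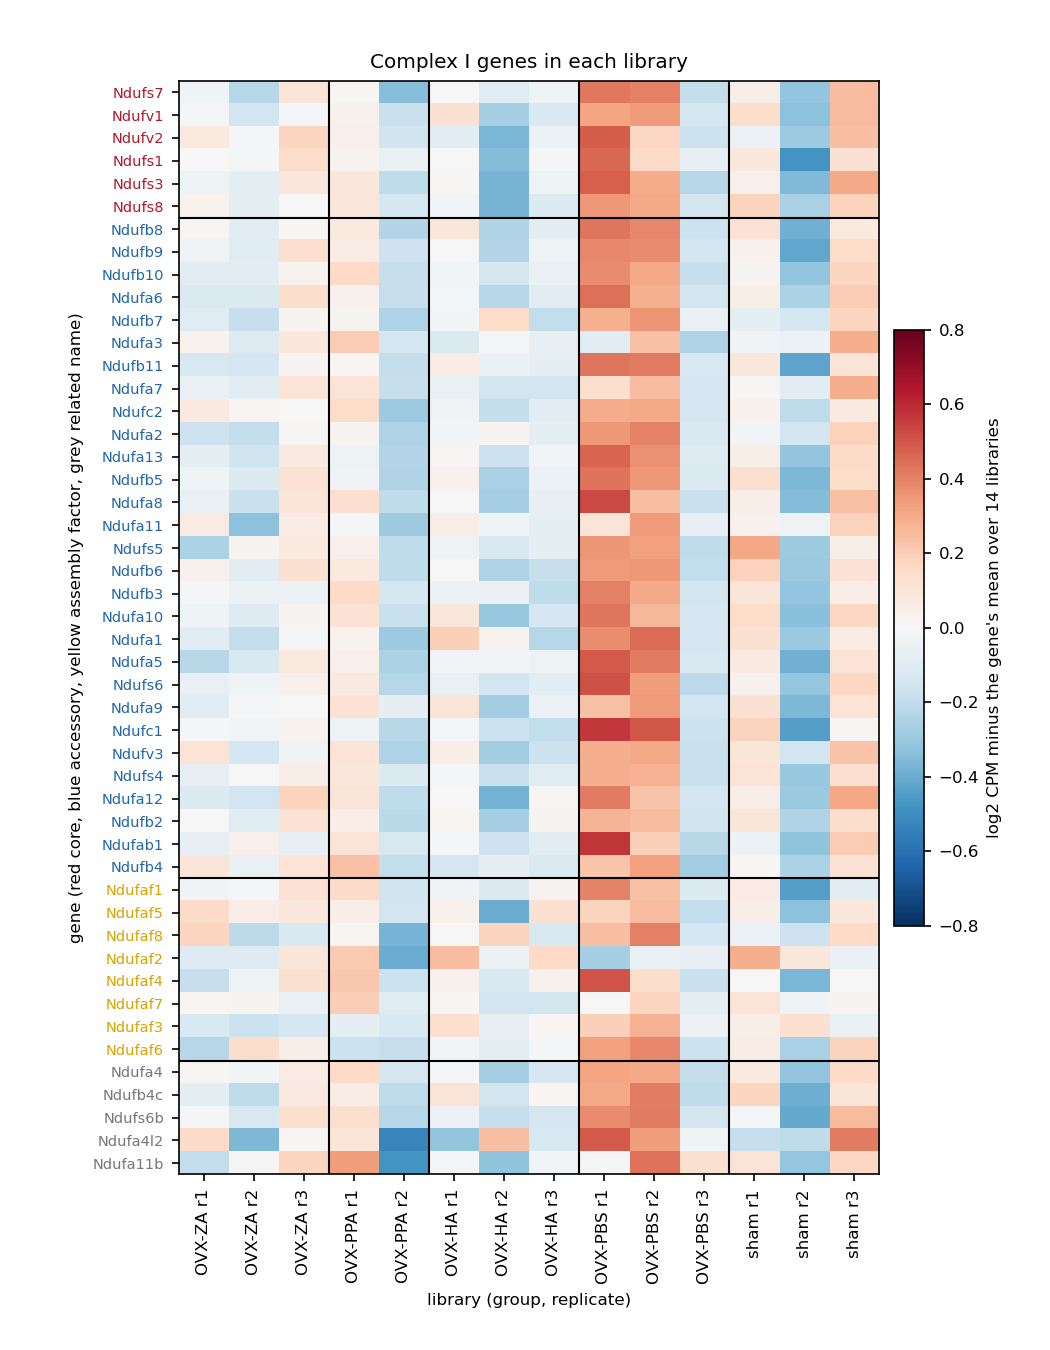
Each cell shows the log2 CPM of a member (rows, by role and level) in a library (columns, by group; 48 members are drawn) minus that member's mean over the 14 libraries. OVX-PBS replicates 1 and 2 are red for nearly all subunits and sham replicate 2 is blue, whereas Ndufaf2 lies below its own mean in OVX-PBS replicate 1.

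The size of this movement was modest. The SD of log2 CPM over the 14 libraries had a median of 0.21 among members, against 0.28 over all genes tested and 0.20 over the 14445 genes in the same range of mean level. The least variable member was Ndufaf7, a methyltransferase that acts in complex I assembly, with an SD of 0.10. Ndufaf7 had 17.9, 17.96 and 16.96 CPM in OVX-ZA, 20.2 and 16.5 in OVX-PPA, 17.9, 15.9 and 15.96 in OVX-HA, 17.7, 19.9 and 16.7 in OVX-PBS, and 18.96, 17.3 and 17.96 in sham. Its highest library was only 1.27 times its lowest, and no group stood apart. The most variable subunit was Ndufc1, a small protein of the membrane arm, with an SD of 0.27 and a 2.02-fold range.

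**Figure D2:**
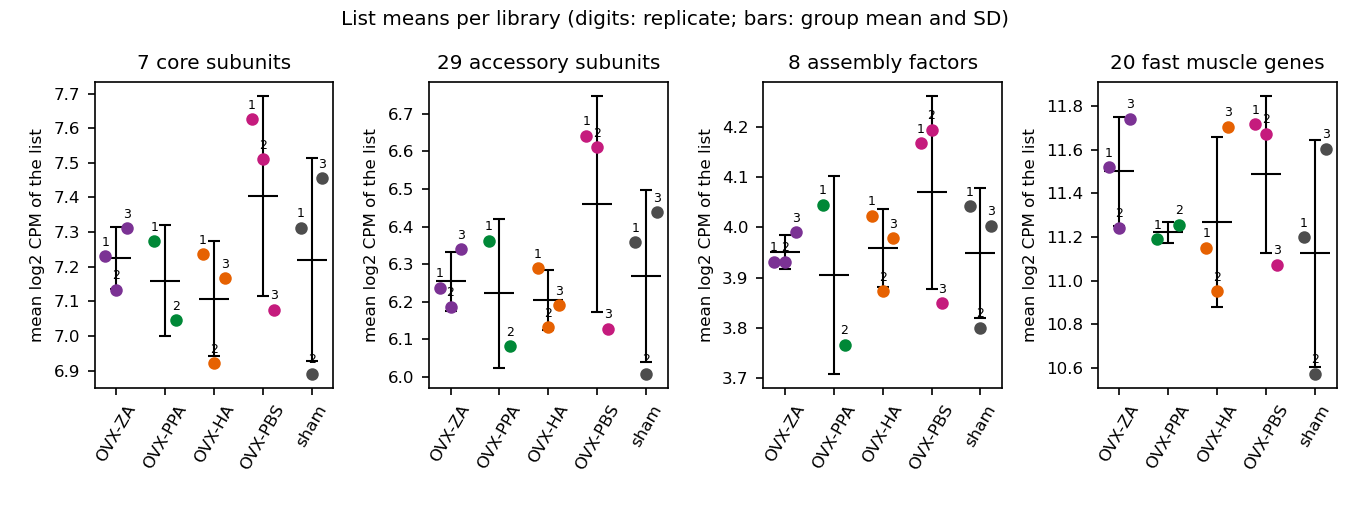
Points are libraries (digits give the replicate), and ticks with bars are group means with their SD. The vertical axes give the mean log2 CPM of 7 core subunits, 29 accessory subunits, 8 assembly factors and the 20 muscle genes (titled fast muscle). In OVX-PBS, replicates 1 and 2 lie above replicate 3 in all 4 panels, and sham replicate 2 is the lowest library for core subunits, accessory subunits and muscle genes.

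What did ovariectomy change? In OVX-PBS, 47 of 49 members were higher than in sham by estimate, against 51.4% of all genes, but 0 of 49 passed the test (edgeR quasi-likelihood, Benjamini-Hochberg adjusted over 21761 genes, threshold 0.05). The share called over all genes was 0%. Of the members, 0 had an unadjusted p under 0.05, against 2.73% of all genes, and DESeq2 called 0 of 49 (0.0046% of all genes). The median log2 difference was 0.20 over the members and 0.0079 over all genes. Single libraries moved the members' median by more than 1.5 times: it was 0.053 without sham replicate 2, 0.099 and 0.13 without OVX-PBS replicates 1 and 2, and 0.30 without OVX-PBS replicate 3. By role the medians were 0.19 for core subunits, 0.21 for accessory subunits and 0.17 for assembly factors. The sum averaged 4838 ± 899 CPM in OVX-PBS and 4204 ± 706 CPM in sham (SD, n = 3 each), so the difference was smaller than the spread within either group.

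The smallest p-values belonged to Ndufaf1, Ndufc1 and Ndufa5. Ndufaf1 had 25.4, 25.7 and 28.1 CPM in OVX-ZA, 28.9 and 23.2 in OVX-PPA, 25.4, 23.97 and 26.3 in OVX-HA, 34.2, 30.5 and 24.1 in OVX-PBS, and 27.1, 19.1 and 24.4 in sham. Ndufaf1, an early assembly factor of the membrane arm, had 2 OVX-PBS libraries above all sham libraries and replicate 3 below 2 of them (log2 difference 0.33 ± 0.155 SE, adjusted p = 0.913). Ndufc1 had 52.3, 51.8 and 53.7 CPM in OVX-ZA, 51.2 and 45.2 in OVX-PPA, 52.2, 46.7 and 45.9 in OVX-HA, 77.9, 74.4 and 46.7 in OVX-PBS, and 59.6, 38.7 and 52.9 in sham. Its OVX-PBS replicate 3 lay below sham replicates 1 and 3, and the log2 difference of 0.40 ± 0.188 had an interval of -0.028 to 0.82. Ndufa5 had 66.4, 71.04 and 81.6 CPM in OVX-ZA, 79.7 and 64.9 in OVX-PPA, 76.1, 76.3 and 75.2 in OVX-HA, 109, 103 and 70.9 in OVX-PBS, and 81.4, 59.3 and 83.4 in sham. Ndufa5, an accessory subunit of the matrix arm, had 2 OVX-PBS libraries above all sham libraries and replicate 3 below 2 of them, with a log2 difference of 0.34 ± 0.172 (adjusted p = 0.913). Without sham replicate 2 the differences were 0.17 for Ndufaf1, 0.21 for Ndufc1 and 0.17 for Ndufa5.

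Only Ndufaf2 separated OVX-PBS from sham without overlap, and it ran the other way. Ndufaf2 had 9.15, 9.16 and 10.5 CPM in OVX-ZA, 11.4 and 7.46 in OVX-PPA, 11.7, 9.51 and 10.98 in OVX-HA, 8.18, 9.44 and 9.41 in OVX-PBS, and 12.03, 10.5 and 9.48 in sham. Ndufaf2, also called mimitin, is an assembly factor that resembles the accessory subunit Ndufa12. All 3 OVX-PBS libraries lay below all 3 sham libraries, a pattern shared by 3.60% of all genes, and the log2 difference of -0.24 ± 0.166 did not pass (adjusted p = 0.913). In no member did all OVX-PBS libraries exceed all sham libraries, which held for 4.03% of all genes. The gap for Ndufaf2 was narrow, with 9.44 CPM in the highest OVX-PBS library and 9.48 CPM in the lowest sham library.

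Did the compounds change these genes in ovariectomized mice? By estimate, 48 of 49 members were below OVX-PBS under hippuric acid, 46 under OVX-PPA and also 46 under OVX-ZA, where differences above 0 made up 53.2%, 47.0% and 43.8% of all genes. In each comparison 0 of 49 passed the test (edgeR quasi-likelihood), and DESeq2 also called 0 of 49, against 0%, 0% and 0.147% of all genes. The share called over all genes was 0% in all 3 by edgeR. At an unadjusted p under 0.05 OVX-HA had 2 members (1.47% of all genes), OVX-PPA had 1 (1.87%) and OVX-ZA had 2 (3.36%). The median log2 difference was -0.28 for OVX-HA, -0.25 for OVX-PPA and -0.22 for OVX-ZA, where those of all genes were 0.014, -0.018 and -0.037. Without OVX-PBS replicate 1 the medians were -0.18, -0.16 and -0.12, and without OVX-PBS replicate 2 that of OVX-ZA was -0.15. Without OVX-PPA replicate 1 the OVX-PPA median was -0.39, and without OVX-PPA replicate 2 it was -0.11. The 3 comparisons share the OVX-PBS libraries, 2 of which held the highest member sums, so their common direction is not independent evidence. A test of any difference among the 5 groups called 0 of 49 members and 0.0046% of all genes, and 0 members had an unadjusted p under 0.05, against 1.85% of all genes (edgeR; DESeq2 called 0 members and 0.23% of genes).

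**Figure D3:**
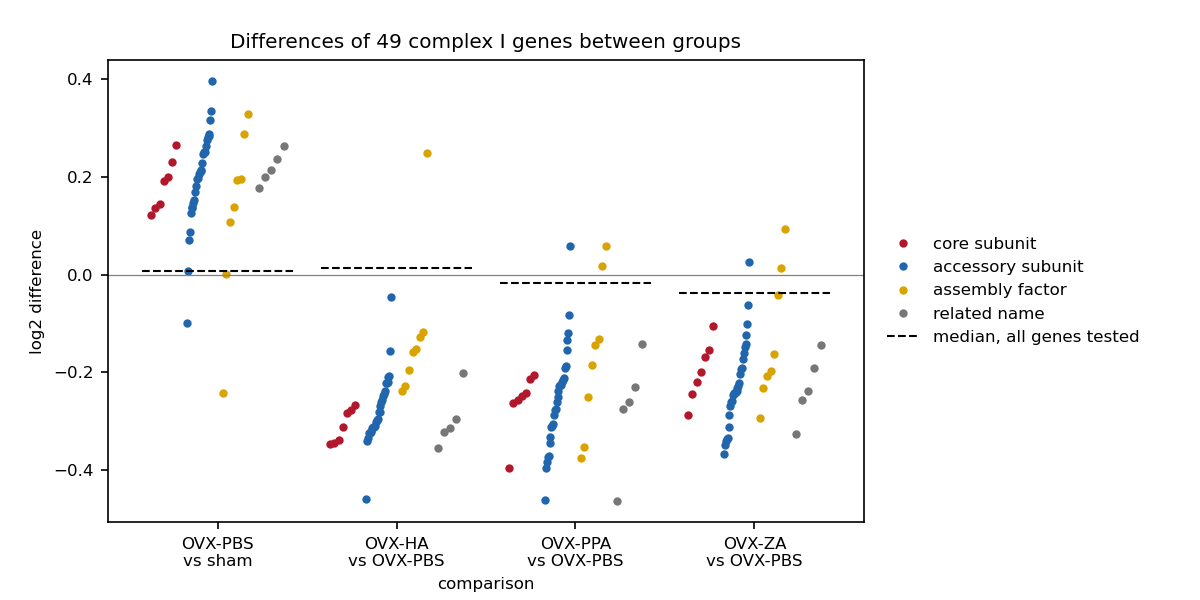
Points are log2 differences of the 49 members in 4 comparisons, coloured by role, and dashed lines are the medians over all genes tested. Most members lie above the line in OVX-PBS against sham and below it in the 3 comparisons with OVX-PBS, and Ndufaf2 is the assembly factor that lies on the other side in the first 2.

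Ndufc1, whose values are given above, had the smallest p in OVX-HA (log2 difference to OVX-PBS -0.46 ± 0.188, unadjusted p = 0.031, adjusted p = 1.00). The OVX-PBS replicate 3 value lay among those of OVX-HA. Ndufs8 had 74.7, 69.8 and 73.4 CPM in OVX-ZA, 78.02 and 66.7 in OVX-PPA, 72.2, 56.6 and 67.9 in OVX-HA, 93.4, 90.6 and 66.1 in OVX-PBS, and 83.01, 61.3 and 83.1 in sham. Ndufs8 carries a pair of iron-sulphur clusters near the ubiquinone site, and its difference in OVX-HA was -0.35 ± 0.158 (adjusted p = 1.00), again with OVX-PBS replicate 3 among the OVX-HA values. Ndufa13 had 136, 128 and 150.3 CPM in OVX-ZA, 139 and 122 in OVX-PPA, 144, 127 and 141 in OVX-HA, 197, 184 and 133 in OVX-PBS, and 147, 115 and 159 in sham. Ndufa13, an accessory subunit also known as GRIM-19, had differences of -0.40 ± 0.179 in OVX-PPA and -0.32 ± 0.159 in OVX-HA (adjusted p = 1.00 each), and OVX-PBS replicate 3 stood within the range of both groups. Without OVX-PBS replicate 1 its OVX-HA difference was -0.21.

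In OVX-ZA the smallest p among members belonged to Ndufaf3, which acts with Ndufaf4 in assembling the matrix arm. Ndufaf3 had 12.6, 12.2 and 12.5 CPM in OVX-ZA, 12.97 and 12.6 in OVX-PPA, 15.1, 13.1 and 13.9 in OVX-HA, 15.7, 16.7 and 13.3 in OVX-PBS, and 14.2, 14.9 and 13.2 in sham. All OVX-ZA libraries lay below all OVX-PBS libraries, as for 9.96% of all genes (log2 difference -0.29 ± 0.112, unadjusted p = 0.0228, adjusted p = 0.899). OVX-PPA also lay below OVX-PBS without overlap, which held for 8.77% of all genes, whereas sham and OVX-PBS overlapped. No member had all libraries above OVX-PBS in OVX-PPA (11.6% of all genes) or in OVX-ZA (4.21% of all genes). Ndufa2 had 58.96, 58.04 and 66.6 CPM in OVX-ZA, 67.2 and 55.7 in OVX-PPA, 65.3, 67.2 and 62.9 in OVX-HA, 84.1, 87.1 and 60.8 in OVX-PBS, and 65.1, 59.5 and 75.2 in sham. Ndufa2, an accessory subunit of the matrix arm with a thioredoxin-like fold, was lower in OVX-ZA by 0.34 ± 0.142 and in OVX-PPA by 0.33 ± 0.160 on the log2 scale by estimate, with adjusted p of 0.899 and 1.00. Without OVX-PPA replicate 2 the OVX-PPA difference of Ndufa2 was -0.20. In OVX-HA, Ndufaf2 lay above OVX-PBS in all libraries (2.24% of all genes) and Ndufa11b lay below (1.83% of all genes), and neither passed the test (adjusted p = 1.00 each). Both gaps were narrow. The nearest libraries had 9.51 CPM in OVX-HA and 9.44 CPM in OVX-PBS for Ndufaf2, and 2.90 and 2.92 CPM for Ndufa11b.

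Doses of the compounds were not stated, so their values stand side by side only. The summed level averaged 4073 ± 513 CPM in OVX-PPA (n = 2) and 3977 ± 308 CPM in OVX-HA (n = 3), and that of OVX-ZA was 4173 ± 230 CPM (SD, n = 3). The libraries of the 3 groups overlapped.

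Muscle content moved with part of these values. In OVX-PBS the muscle genes took 9.67%, 9.12% and 6.13% of counts in replicates 1 to 3, which is the order of the member sums. Sham replicate 2 had the lowest share of all at 4.43%. The match was not complete, since OVX-ZA replicate 3 and OVX-HA replicate 3 had shares of 9.88% and 9.65% with member sums of 4420 and 4007 CPM. Group means were 8.41 ± 1.52% in OVX-ZA, 6.72 ± 0.275% in OVX-PPA, 7.22 ± 2.14% in OVX-HA, 8.31 ± 1.91% in OVX-PBS and 6.70 ± 2.30% in sham. With the muscle and brown fat scores as covariates, the median difference of the members was 0.10 in OVX-PBS against sham. Against OVX-PBS it was -0.054 for OVX-HA, -0.13 for OVX-PPA and -0.17 for OVX-ZA. In a separate fit without the 2 libraries low in nervous tissue RNA, and without these covariates, the medians were 0.12, -0.17, -0.15 and -0.098. In bulk RNA, a change in the number of muscle cells and a change in RNA per cell cannot be told apart.

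**Figure D4:**
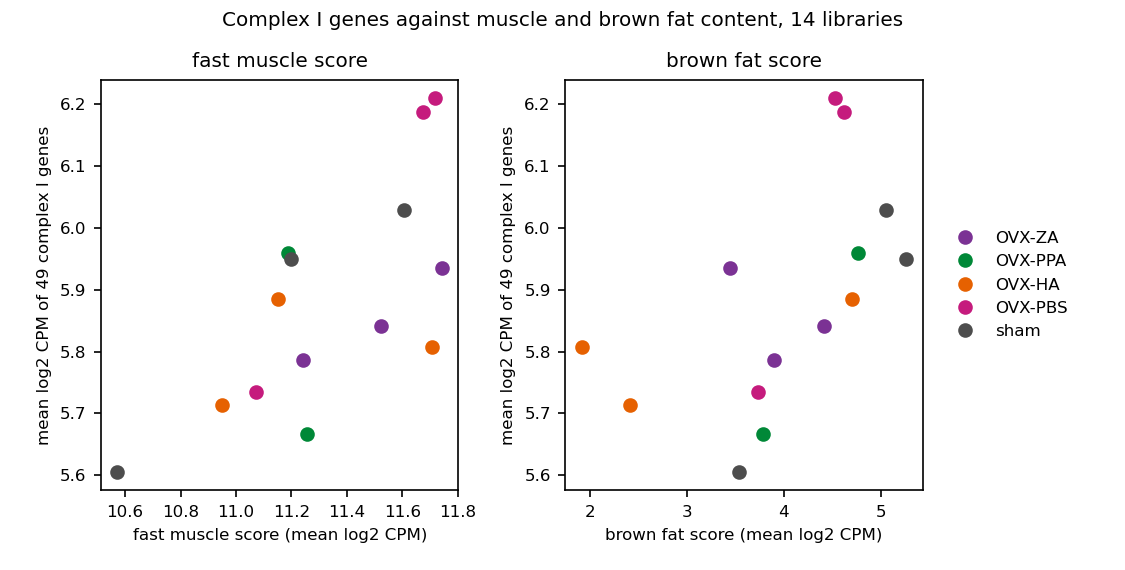
Each point is a library, with the mean log2 CPM of the 49 members on the vertical axis. The horizontal axis gives the mean log2 CPM of the 20 muscle genes (left, titled fast muscle) or 4 brown fat genes (right). Sham replicate 2, at the lowest muscle score of 10.57, also has the lowest member mean of 5.61, and the 2 OVX-PBS libraries at the top have muscle scores of 11.72 and 11.68.

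How closely did each member follow muscle and brown fat? A fit with group, a muscle score and a brown fat score gave each gene a slope, which is its log2 change per unit of score within groups. A slope of 1 means that a gene changed in proportion to the marker genes. The 20 muscle genes make up the score, so their median slope of 1.006 was near 1 by construction. The 8 slow-fibre genes outside the score did not follow it as a list. Their median muscle slope was -0.0090, with 3 positive and 5 negative. Of these 8, 0 passed the test and 1 had an unadjusted p under 0.05. The muscle slope was positive for 48 of 49 members, against 42.4% of all genes, with a median of 0.36 against -0.057. It passed the test for 7 members, all positive, against 2.65% of all genes in that direction (edgeR quasi-likelihood, adjusted over 21761 genes; 2.76% in either direction and 0.11% negative), and 32 had an unadjusted p under 0.05, against 13.3% of all genes. The number of calls depended on the libraries, and so did the share of all genes called in either direction, which is given beside each count. Without OVX-HA replicates 1 to 3 in turn, 1 member (2.11% of all genes), 14 (3.79%) and 0 (0.79%) passed. Without those of OVX-PBS, 2 (2.26%), 2 (2.32%) and 0 (1.37%) passed, and without those of OVX-PPA 4 (2.34%) and 4 (2.07%). Without those of sham, 1 (2.13%), 0 (0.788%) and 0 (0.994%) passed, and without those of OVX-ZA 3 (1.96%), 1 (1.64%) and 0 (1.28%). Without the 2 libraries low in nervous tissue RNA 10 members passed (3.73%), and with no filter on low counts 1 passed (1.05%). DESeq2 called 26 (6.55% of all genes, 5.78% positive), and a score of slow-fibre genes in place of the 20 muscle genes gave 0 (0.0046%). With a nervous system score added, 22 members passed on the muscle slope (6.53% of all genes, 5.16% positive). With replicate number added as a block, 0 members and 0% of all genes passed. The median slope stayed between 0.28 and 0.41 over the 14 fits with a library left out.

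The 7 genes comprised 4 core subunits and 3 accessory subunits. On mm10, Ndufs1 lies at chromosome 1, 63143596 to 63176833, Ndufs3 at chromosome 2, 90894634 to 90904827, and Ndufv1 at chromosome 19, 4007384 to 4012806, all on the minus strand. Ndufb5 lies at chromosome 3, 32736990 to 32751566, Ndufa12 at chromosome 10, 94198720 to 94221443, and Ndufb9 at chromosome 15, 58933756 to 58939488, all on the plus strand. Ndufs3, a core subunit of the matrix arm, had the largest slope at 0.54 ± 0.109 (SE, adjusted p = 0.032). Ndufs3 had 89.97, 87.7 and 98.7 CPM in OVX-ZA, 98.7 and 80.3 in OVX-PPA, 93.2, 71.5 and 90.01 in OVX-HA, 129, 114 and 78.97 in OVX-PBS, and 95.2, 72.5 and 114 in sham. It was highest in OVX-PBS replicates 1 and 2 and sham replicate 3, and lowest in OVX-HA replicate 2 and sham replicate 2.

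Ndufs1 holds several iron-sulphur clusters of the electron chain and had a slope of 0.46 ± 0.103 (adjusted p = 0.047). Ndufs1 had 236, 235 and 262 CPM in OVX-ZA, 241 and 228 in OVX-PPA, 236, 186 and 234 in OVX-HA, 326, 264 and 226 in OVX-PBS, and 251, 170.2 and 257 in sham. Its sham replicate 2 value stood below all others. Ndufv1 binds FMN and NADH, the entry point of electrons, and had a slope of 0.37 ± 0.0774 (adjusted p = 0.035). Ndufv1 had 201, 183 and 202 CPM in OVX-ZA, 208 and 180.3 in OVX-PPA, 222, 169.5 and 187 in OVX-HA, 253, 257 and 185 in OVX-PBS, and 225, 162 and 243 in sham. Groups overlapped for both genes. Ndufv2, Ndufs7 and Ndufs8 had slopes of 0.48, 0.46 and 0.37 that did not pass the test, with adjusted p of 0.058, 0.099 and 0.063.

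Among accessory subunits, Ndufa12 had a slope of 0.54 ± 0.113 (adjusted p = 0.036). Ndufa12 had 42.6, 41.4 and 51.99 CPM in OVX-ZA, 49.5 and 39.9 in OVX-PPA, 45.9, 35.4 and 46.4 in OVX-HA, 61.5, 53.9 and 41.4 in OVX-PBS, and 47.9, 37.5 and 57.04 in sham. Ndufa12 belongs to the matrix arm and takes the place that Ndufaf2 holds during assembly. The left-out row Ndufa12-ps had a median of 59.9 CPM, against 46.1 CPM of Ndufa12, and a slope of 0.53 ± 0.127 that did not pass. How reads were divided between Ndufa12 and Ndufa12-ps is not known. Ndufb9 and Ndufb5, both of the membrane arm, had slopes of 0.47 ± 0.0948 (adjusted p = 0.032) and 0.43 ± 0.0942 (adjusted p = 0.043). Ndufb9 had 183, 175 and 204 CPM in OVX-ZA, 194 and 166 in OVX-PPA, 186, 159 and 183 in OVX-HA, 244, 243 and 168 in OVX-PBS, and 191, 140.2 and 207 in sham. Ndufb5 had 119.7, 114 and 133 CPM in OVX-ZA, 120.3 and 104 in OVX-PPA, 126, 102 and 119 in OVX-HA, 166, 156 and 113 in OVX-PBS, and 134, 95.5 and 136 in sham. Both were lowest in sham replicate 2. Ndufa8 had a slope of 0.48 ± 0.121, the second largest of the accessory subunits, and did not pass (adjusted p = 0.073). Ndufa8 had 90.8, 83.95 and 102 CPM in OVX-ZA, 104 and 82.4 in OVX-PPA, 94.8, 78.8 and 90.4 in OVX-HA, 137, 112 and 83.8 in OVX-PBS, and 98.5, 74.4 and 111 in sham. All 29 accessory subunits had positive slopes, from 0.15 (Ndufb7) to 0.54, with a median of 0.36.

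Assembly factors lay lower. Their muscle slopes had a median of 0.24. Of the 8, 0 passed the test, against 2.76% of all genes, and 3 had an unadjusted p under 0.05, against 13.3% of all genes. The 3 smallest slopes of all members were those of Ndufaf2 (-0.038 ± 0.191), Ndufaf7 (0.0016 ± 0.109) and Ndufaf3 (0.016 ± 0.125), whose adjusted p were 0.980, 0.999 and 0.987. The signs of these 3 slopes changed with single libraries left out. The 95% interval of Ndufaf2, -0.49 to 0.41, includes the accessory median of 0.36, while the upper bounds of Ndufaf7 and Ndufaf3 were 0.26 and 0.31. The difference in slope between subunits and assembly factors was not tested. Ndufaf5, Ndufaf4, Ndufaf1 and Ndufaf6 had slopes of 0.42, 0.36, 0.33 and 0.33, and Ndufaf8 had 0.15.

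**Figure D5:**
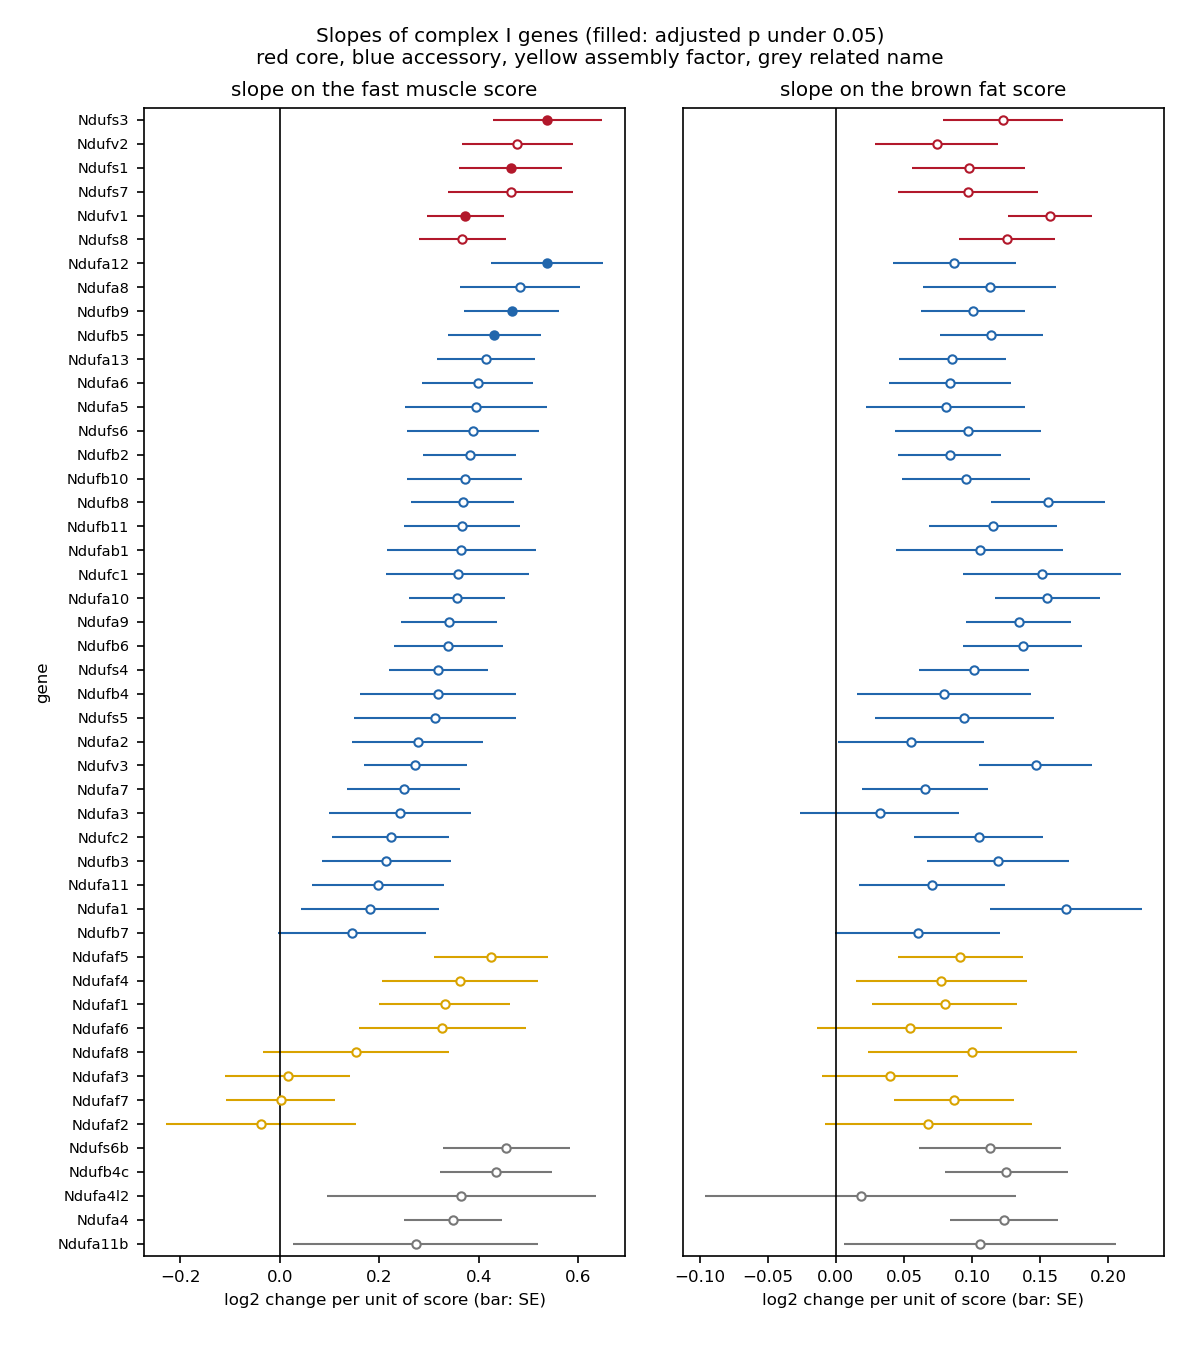
Points are slopes on the muscle score (left, titled fast muscle) and the brown fat score (right) with their SE for 48 members, by role. Filled points passed the adjusted threshold. The 6 filled points are all muscle slopes of core or accessory subunits, and Ndufaf2, Ndufaf3 and Ndufaf7 sit near 0 on the left.

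The brown fat slope was positive for all 49 members, against 45.0% of all genes, with a median of 0.098 against -0.0095. None passed the test (0 of 49; edgeR called 0.335% of all genes), 20 had an unadjusted p under 0.05, against 5.24% of all genes, and DESeq2 called 9 of 49 (1.53% of all genes, 1.5% positive). With the nervous system score added 1 member passed (0.91% of all genes, positive). The 3 largest slopes were those of Ndufa1 (0.17 ± 0.0558, adjusted p = 0.601), Ndufv1 (0.16 ± 0.0311, adjusted p = 0.090) and Ndufb8 (0.16 ± 0.0417, adjusted p = 0.313). The slope of Ndufa1 was 0.095 without OVX-HA replicate 3, below the 0.14 of Ndufv1 in that fit, and the median slope of the members was 0.15 without OVX-HA replicate 1. Ndufa1 had 35.1, 32.7 and 36.9 CPM in OVX-ZA, 38.1 and 30.5 in OVX-PPA, 42.6, 38.2 and 31.8 in OVX-HA, 48.3, 50.9 and 34.1 in OVX-PBS, and 40.7, 30.4 and 39.01 in sham. Ndufa1 is a small X-linked subunit that anchors the membrane arm next to the matrix arm. Ndufb8 had 193, 179.7 and 193 CPM in OVX-ZA, 202 and 163 in OVX-PPA, 204, 162 and 180.3 in OVX-HA, 258, 249 and 170.2 in OVX-PBS, and 208, 147 and 202 in sham. The smallest were those of Ndufa4l2 (0.018 ± 0.114), Ndufa3 (0.032 ± 0.0585) and Ndufaf3 (0.040 ± 0.0498). Ndufa4l2 had 10.3, 7.24 and 9.37 CPM in OVX-ZA, 9.93 and 6.42 in OVX-PPA, 7.44, 10.97 and 8.52 in OVX-HA, 13.04, 11.7 and 9.04 in OVX-PBS, and 8.16, 8.06 and 12.4 in sham. Ndufa3 had 74.5, 68.05 and 77.5 CPM in OVX-ZA, 83.8 and 66.3 in OVX-PPA, 67.4, 72.4 and 69.7 in OVX-HA, 68.9, 85.7 and 61.5 in OVX-PBS, and 71.7, 70.6 and 89.2 in sham. Ndufa4l2, which is induced by hypoxia in other settings, was the most variable of the 49 with an SD of 0.30, and its highest libraries were OVX-PBS replicate 1 and sham replicate 3.

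Marker genes of other cell types were fitted on the same scores. Along the muscle score, all 8 neutrophil genes had negative slopes (median -0.92, 0 passed, 8 of 8 at an unadjusted p under 0.05), as did all 8 osteoblast genes (median -0.45) and all 8 osteoclast genes (median -0.52), and in both lists 0 genes passed and 0 had an unadjusted p under 0.05. Over all genes, 2.76% passed on the muscle slope and 13.3% had an unadjusted p under 0.05. Along the brown fat score, the 7 white fat genes were positive with a median of 0.37, and 3 of 7 passed, against 0.335% of all genes. They were positive along the muscle score as well (median 0.31, 0 passed). The 8 neutrophil genes were negative along the brown fat score too (median -0.31, 0 passed). Of these, 4 had an unadjusted p under 0.05, against 5.24% of all genes. All 8 erythroid genes were negative along both scores (medians -0.26 for muscle and -0.14 for brown fat, 0 passed). The brown fat score ran lowest in OVX-HA replicates 3 and 2, at 1.92 and 2.42, and from 3.44 to 5.26 in the other libraries. The part of these cell types in the members' slopes was not tested. On a nervous system score, a comparison added after the data were seen, 0 of 49 members passed (3 at an unadjusted p under 0.05), against 29.5% of all genes (39.4% unadjusted; 15.2% called positive and 14.3% negative), and 8 of 49 slopes were above 0, against 44.2% of all genes. Without the 2 libraries low in that RNA, 1 member passed, against 5.40% of all genes.

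Other genes of the respiratory chain also had mostly positive muscle slopes. All 7 mitochondrially encoded subunits of complex I had positive muscle slopes with a median of 0.57, and 2 passed, mt-Nd2 (0.68 ± 0.153, adjusted p = 0.049) and mt-Nd6 (0.54 ± 0.114, adjusted p = 0.037). In complex II 2 of 4 genes passed (Sdha 0.44, Sdhc 0.45), in complex III 3 of 9 (Uqcrc1 0.45, Uqcrc2 0.44, Uqcrb 0.56), in complex IV 1 of 14 (the muscle isoform Cox6a2, 0.71) and in ATP synthase 4 of 15 (Atp5a1 0.41, Atp5b 0.40, Atp5c1 0.49, Atp5g1 0.56), all positive. List medians were 0.45, 0.40, 0.29 and 0.36 for complexes II to V. In these lists 0 genes passed on the brown fat slope, against 0.335% of all genes. The share of all genes that passed on the muscle slope with a positive sign was 2.65%.

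Of 10 other assembly factors of complex I looked for, 9 had tested rows, and 1 of 9 passed on the muscle slope, Ecsit (0.49 ± 0.0910, adjusted p = 0.020), which acts with Ndufaf1. The median slope of the 9 was 0.26. The largest was that of Nubpl (0.60 ± 0.207), which did not pass (adjusted p = 0.211). The smallest slopes were those of Foxred1 (0.010 ± 0.0881), Dmac1 (0.032 ± 0.166) and Tmem186 (0.096 ± 0.109). Of 8 regulators of mitochondrial genes, only the muscle regulator Perm1 passed (0.67 ± 0.141, adjusted p = 0.037). For both lists, the share of all genes that passed on the muscle slope was 2.76% in either direction. The slope of the coactivator Ppargc1a was 0.38 ± 0.233 (adjusted p = 0.588), that of Esrra 0.37 ± 0.122 (0.193) and that of the transcription factor Nrf1 -0.22 ± 0.228 (0.816).

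Because most members moved together, their promoters were searched for motifs of known regulators of respiratory genes. RefSeq windows on GRCm38.p6, from 250 bases before to 50 after the gene start, matched 40 of 49 members in 42 windows. Both strands were searched. The NRF1 motif, GCGC followed by any 2 bases and GCGC again, occurred in 12 of 42 windows (28.6%), against 6.23% of 32851 windows of all genes, and the YY1 motif AAGATGGCG in 6 (14.3%, against 1.40%), always after the start. The ETS motif CCGGAAG occurred in 14.3% of member windows, against 8.86%, the SP1 motif GGGGCGGGG in 14.3%, against 11.4%, and TATAAA in 11.9%, against 13.6%. The ERR motif TCAAGGTCA occurred in 0 member windows and in 0.423% of all. Such matches are descriptions of letters and not evidence of binding.

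As examples, the 250 bases before the gene start are shown for the core subunit Ndufv2, which has overlapping NRF1 matches from 17 and 15 bases before the start (in capitals), and for Ndufaf2, the member with the lowest muscle slope, which has no match to these motifs there. Both genes lie on the minus strand, at chr17:66101560-66101809 and chr13:108158626-108158875 of GRCm38.p6. Whether a motif goes with the muscle slope was not tested. Ndufs3, the member with the largest muscle slope, had no NRF1 match but had ETS matches at positions -27 and 2 from the start.
Ndufv2: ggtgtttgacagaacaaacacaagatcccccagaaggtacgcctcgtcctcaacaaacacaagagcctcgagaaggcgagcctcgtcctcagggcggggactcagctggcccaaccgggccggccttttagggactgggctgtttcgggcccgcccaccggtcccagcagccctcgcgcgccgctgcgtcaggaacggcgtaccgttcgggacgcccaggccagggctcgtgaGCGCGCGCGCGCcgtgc
Ndufaf2: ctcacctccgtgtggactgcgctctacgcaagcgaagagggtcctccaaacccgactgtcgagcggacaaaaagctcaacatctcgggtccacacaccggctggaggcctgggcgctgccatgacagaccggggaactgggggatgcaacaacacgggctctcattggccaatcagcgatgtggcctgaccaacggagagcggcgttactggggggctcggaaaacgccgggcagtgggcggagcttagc
Ndufv2 had 193, 180.2 and 205 CPM in OVX-ZA, 188 and 163 in OVX-PPA, 172, 141 and 177 in OVX-HA, 255, 205 and 162 in OVX-PBS, and 177, 149 and 215 in sham. Ndufv2, which carries an iron-sulphur cluster in the NADH-binding module, had its highest values in OVX-PBS replicate 1 and sham replicate 3, whereas Ndufaf2 was highest in sham replicate 1 and OVX-HA replicate 1.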

How the data were processed

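RNA of 14 tibia libraries (OVX-ZA 3, OVX-PPA 2, OVX-HA 3, OVX-PBS 3, sham 3) was made with a stranded mRNA kit and read as single 75-base reads, per the labels' protocols. The authors deposited a table of estimated counts per gene symbol, in which 20.7% of values were not whole (tolerance 0.01). The submitters' processing notes name mm10 and, with no role given, STAR 2.7.8a, CASAVA 1.8.1, Partek and Bowtie2 2.2.5. No header or label states how strand was counted.

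Estimated counts were rounded, genes low in all groups were filtered (21761 of 55291 kept; 16316 were 0 everywhere) and libraries were scaled by TMM. edgeR 4.0.16 (R 4.3.3) fitted all 14 libraries with a quasi-likelihood test, Benjamini-Hochberg adjustment over all tested genes and a threshold of 0.05, with 9 residual degrees of freedom for groups and 7 for slopes. Intervals are at 95% and use these residual degrees of freedom alone, so they can be wider than the tests imply. For Ndufa13 in OVX-PPA the unadjusted p was 0.048 (edgeR quasi-likelihood), while the interval was -0.80 to 0.010. Scores are mean log2 CPM of marker genes with a prior count of 2. Muscle scores use 20 genes and brown fat scores 4. Levels per kb use GENCODE M21 principal transcripts, and promoter sequences are from RefSeq. With 11896743 to 35417948 counts per library, the lowest member had 31.1 counts.

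Values in every library are given for members with the highest and lowest level per length, the 3 smallest p-values per comparison, the 3 largest and smallest slopes per score, and every member called. Core subunits and assembly factors are also described as groups, and the values of Ndufv2 stand beside its promoter, a choice made after they were seen. The members and all gene lists were chosen with earlier results of these data known. Alternatives were RLE scaling, no filter, DESeq2 1.42.0, each replicate left out, covariates, a replicate block and other scores. One member is counted throughout but is not reported here by name.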

Additional observations from a re-analysis of the deposited data

How the results depend on the processing

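In the 5 group tests the count of members called was 0 under all alternatives run, including DESeq2 (0.23% of all genes at most), and no median changed sign. With a replicate left out, the median log2 difference ran from 0.053 (without sham replicate 2) to 0.30 (without OVX-PBS replicate 3) in OVX-PBS against sham, from -0.40 to -0.18 in OVX-HA, from -0.39 to -0.11 in OVX-PPA and from -0.30 to -0.12 in OVX-ZA, each against OVX-PBS. With muscle and brown fat covariates the OVX-HA median was -0.054.

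The share of all genes called in either direction stands beside each count. The 7 muscle slope calls (2.76%) became 11 with RLE scaling (3.29%), 1 with no filter on low counts (1.05%), 22 with a nervous system score added (6.53%), 26 with no group term (6.56%), 4 with the muscle score alone (3.11%), 0 with slow-fibre genes (0.0046%; median slope 0.21) and 26 with DESeq2 (6.55%); with a replicate left out they ran from 0 (0.79% without OVX-HA replicate 3) to 14 (3.79% without OVX-HA replicate 2). The brown fat calls, 0 at first (0.335%), were 9 with DESeq2 (1.53%), 5 with no group term (1.2%), 1 with the nervous system score (0.924%), 1 without the 2 libraries low in nervous tissue RNA (0.653%) and 0 to 1 with a replicate left out (1 and 0.625% without OVX-HA replicate 2), where the median slope ran from 0.079 to 0.15. The nervous system slope had 1 call without those 2 libraries (5.4%). The cause of these changes was not tested.

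Small slopes changed sign. With a replicate left out, the muscle slope ran from -0.25 to 0.092 for Ndufaf2, from -0.063 to 0.039 for Ndufaf7 and from -0.052 to 0.16 for Ndufaf3, and the brown fat slope from -0.11 to 0.27 for Ndufa4l2 and from -0.014 to 0.11 for Ndufa3. With no filter, the muscle slopes of Ndufaf7 and Ndufaf3 were -0.0094 and -0.0037. Ndufaf3 had -0.020 without the 2 libraries. With slow-fibre genes, Ndufaf2 had 0.031 and Ndufs1 -0.12.

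Whether equal replicate numbers mark pairs is not stated. Deviations from the group mean correlated above 0.1 in 8 of 26 same-numbered pairs (range -0.55 to 0.43), and 5 of 14 libraries correlated best with their own number. Such deviations depend on each other within these small groups, and no value expected without pairing was computed. These correlations therefore cannot show whether libraries were paired. With the replicate block, 0 members and 0% of all genes were called on the muscle slope, and the brown fat slope of Ndufa4l2 was -0.041.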

Other observations

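The 4 symbols left out for their -ps ending also had counts assigned to them. Their sequences were not compared with those of Ndufa12, Ndufab1 and Ndufs5, so how reads were shared between these rows is not known. Ndufb1-ps had a median of 67.9 CPM over the 14 libraries (54.0 to 100.97), Ndufa12-ps 59.9 CPM (48.6 to 84.05), Ndufs5-ps 28.0 CPM (21.4 to 34.9) and Ndufab1-ps 11.4 CPM (7.58 to 20.4). Their muscle slopes were 0.26 ± 0.167, 0.53 ± 0.127, 0.35 ± 0.151 and 0.51 ± 0.195 (SE), all positive, and 0 of 4 passed the test (edgeR adjusted p from 0.063 to 0.602).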
